A study of Mus musculus with 7 samples.

Results

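The genes for 10 proteins of the cartilage matrix other than collagens were followed in oligodendroglia from mouse brain: the matrilin genes Matn1, Matn2, Matn3 and Matn4, the chondromodulin gene Cnmd, 3110079O15Rik (the gene now called Snorc), Susd5, Comp, Prelp and Fmod. They were taken by gene name from count tables of 49315 genes, and all 10 were found, on 1 row each. The compared libraries were 4 of cells that overexpress the transcription factor Sox9 (Sox9-tg) and 3 of cells wild type for Sox9 (control). According to the title of the series, the cells are early postnatal NG2 glia and the question is which genes Sox9 targets in them. The labels give the genotypes as Sox9-tg and Sox9-wt; they do not name the promoter that drives the transgene, the strain, age or sex, or how cells were isolated. Libraries are called biological replicates, but nothing says whether they came from separate animals or cultures, so p-values measure only the spread between these libraries. The genes were picked by name with results of this same comparison known. Their own differences between Sox9-tg and control libraries are therefore given as a description, without a test.

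Matrilins are a family of modular proteins that assemble into oligomers and connect collagen fibrils with proteoglycans such as aggrecan. Matrilin-1 and matrilin-3 are typical of cartilage, whereas matrilin-2 and matrilin-4 are also made in other tissues, the nervous system among them. Chondromodulin is a membrane-bound precursor from which cartilage cells release a factor that keeps blood vessels out, and SOX9 is the regulator that switches on the matrix programme of chondrocytes. NG2 glia, the dividing progenitors of oligodendrocytes, lie in a brain matrix of hyaluronan, lecticans and link proteins.

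The libraries held between 15768472 and 20815459 gene counts in Sox9-tg and between 17275678 and 30507326 in control cells. Levels are in CPM, the counts of a gene relative to the scaled total of its library, and values after ± are SD over 4 Sox9-tg or 3 control libraries. A positive log2 fold change means a higher level in Sox9-tg libraries. Sox9 itself was at 2207, 2741, 3597 and 3115 CPM in Sox9-tg libraries 1 to 4, against 239, 353 and 293 CPM in control libraries 1 to 3, so all 7 libraries matched their labels. The defining genes of NG2 glia, Pdgfra and Cspg4 among them, were present in every library, with a summed level of 6 markers between 6025 and 9395 CPM in Sox9-tg and between 1929 and 2416 CPM in control libraries. Astrocyte markers summed to 578 to 745 CPM in Sox9-tg and 887 to 1848 CPM in control libraries, and neuron markers to 320 to 855 CPM in Sox9-tg and 960 to 1836 CPM in control libraries, with 3 of 5 markers lower in each list (edgeR). The part of these cell types in the differences below was not tested. Since these are bulk samples, more cells of a type and more RNA per cell cannot be told apart for any gene below.

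Cartilage matrix genes fell into 3 classes in these cells. Matn4, Cnmd, Susd5 and Matn1 were 22.2 to 64.8 times as high in Sox9-tg as in control libraries. Prelp and Fmod overlapped between the groups, and Matn2, 1.66 times as high in Sox9-tg as in control libraries, only just failed to overlap. Matn3, 3110079O15Rik and Comp were close to the detection limit in most libraries and did not pass the filter on low counts, so 7 of the 10 genes entered the fit. In the fit over all 16616 genes (edgeR's quasi-likelihood test, Benjamini-Hochberg adjustment, threshold 0.05), 4 of the 7 had an adjusted p under the threshold, all higher in Sox9-tg libraries, beside 7.69% of all genes tested that were called higher (13.5% called in either direction). In 6 of the 10 genes, and 5 of the 7 tested, every Sox9-tg library was above every control library, as for 13.1% of all genes tested. Both counts are set by the choice of the genes and nothing is read from them.

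**Figure D1:**
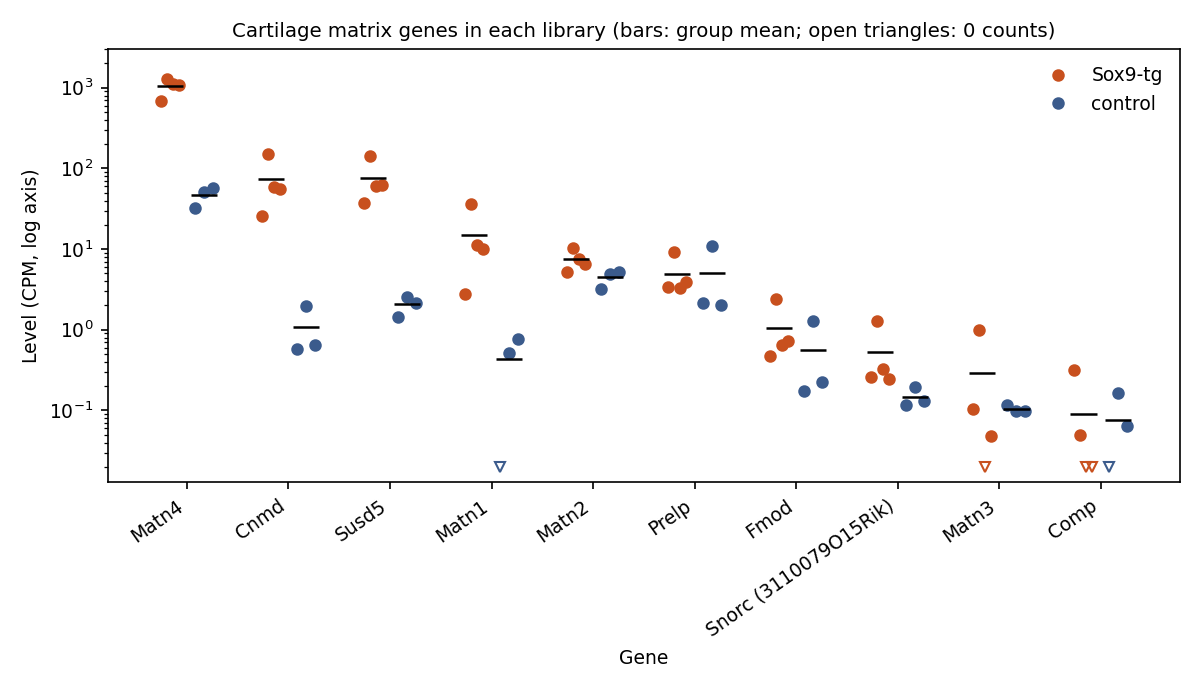
Level of each of the 10 genes (CPM, log axis) in the 4 Sox9-tg libraries (orange, left) and the 3 control libraries (blue, right); each point is a library, black bars are group means and open triangles mark libraries with 0 counts. Matn4, Cnmd, Susd5 and Matn1 are separated between the groups, and Matn3, 3110079O15Rik and Comp lie near the limit of detection.

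Matn4, which encodes matrilin-4, was by far the most abundant of the 10. It was at 677, 1297, 1102 and 1071 CPM in Sox9-tg libraries 1 to 4, against 32.1, 50.7 and 56.8 CPM in control libraries 1 to 3. The lowest Sox9-tg library was thus 11.9 times the highest control library. The group means were 1036 ± 260 CPM in Sox9-tg and 46.5 ± 12.9 CPM in control libraries (log2 fold change 4.48, SE 0.31). Its coefficient of variation was 25.1% among Sox9-tg and 27.7% among control libraries, and in Sox9-tg libraries that of Susd5, Cnmd and Matn1 was 60.4% to 96%. Replicate 1 was the lowest library in both groups. The gene lies on the minus strand of chromosome 2, from 164389393 to 164405160 in GRCm38.

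Matn1, which encodes the cartilage protein matrilin-1, was nearly silent in control cells. It had 53, 721, 175 and 208 counts in Sox9-tg libraries 1 to 4, or 2.78, 36.0, 11.3 and 10.2 CPM. Control libraries 1 to 3 had 0, 16 and 24 counts, or 0, 0.520 and 0.776 CPM. In control library 1 a count of 0 allows a level of up to 0.174 CPM (3 counts, counting error only). The groups did not overlap, yet Sox9-tg replicate 2 was 4.46 times the mean of the other Sox9-tg libraries, and the Sox9-tg mean was 15.04 ± 14.4 CPM. The log2 fold change against the control mean of 0.432 ± 0.396 CPM was 4.98 (SE 1.02). Leaving out Sox9-tg replicate 2 gave 4.12, and leaving out control replicate 3 gave 5.58. Matn1 lies on chromosome 4 (plus strand, 130944385 to 130955475).

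Matn2, which encodes matrilin-2, a protein found in many connective tissues and in peripheral nerve, differed less than Matn4 and Matn1. It was at 5.25, 10.3, 7.54 and 6.59 CPM in Sox9-tg libraries 1 to 4, against 3.20, 4.97 and 5.21 CPM in control libraries 1 to 3. The groups only just failed to overlap, the lowest Sox9-tg library being 1.01 times the highest control library (log2 fold change 0.73, SE 0.29, chromosome 15). Matn3, the second matrilin of cartilage, was barely detected, with 2, 20, 0 and 1 counts in Sox9-tg libraries 1 to 4, against 2, 3 and 3 counts in control libraries 1 to 3. Only Sox9-tg replicate 2 exceeded 3 counts, at 0.998 CPM (chromosome 12). Of the 4 matrilins, the pair that differed most between the groups therefore held 1 member typical of cartilage, Matn1, and 1 that other tissues also express, Matn4.

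Cnmd, the chondromodulin gene, had the largest fold difference of the 10. It was at 25.5, 152, 58.3 and 55.8 CPM in Sox9-tg libraries 1 to 4, against 0.581, 1.98 and 0.647 CPM in control libraries 1 to 3. The lowest Sox9-tg library was 12.8 times the highest control library. The means were 72.9 ± 54.8 CPM in Sox9-tg and 1.07 ± 0.791 CPM in control libraries (log2 fold change 6.02, SE 0.76, chromosome 14). Replicate 2 was the highest library in both groups, 3.27 times the mean of the other Sox9-tg and 3.23 times the mean of the other control libraries. The log2 fold change became 5.39 when Sox9-tg replicate 2 was left out and 6.86 when control replicate 2 was.

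Susd5 encodes a membrane protein with a sushi domain and a link domain of the kind that binds hyaluronan. It was at 37.8, 143, 61.1 and 62.5 CPM in Sox9-tg libraries 1 to 4, against 1.45, 2.57 and 2.17 CPM in control libraries 1 to 3. No library of one group came near the other: the lowest Sox9-tg library was 14.7 times the highest control library, the widest gap of the 10 genes (log2 fold change 5.17, SE 0.51, chromosome 9). The gene 3110079O15Rik, Snorc, encodes a small membrane proteoglycan of chondrocytes. It had 5, 26, 5 and 5 counts in Sox9-tg libraries 1 to 4, against 2, 6 and 4 counts in control libraries 1 to 3. At 0.244 to 1.30 CPM in Sox9-tg and 0.116 to 0.195 CPM in control libraries the groups did not overlap, but apart from Sox9-tg replicate 2 all libraries had 6 counts or fewer (chromosome 1). When no filter on low counts was applied its log2 fold change was 1.80 (SE 0.81).

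Comp, which encodes the pentameric matrix protein COMP of cartilage and tendon, was hardly detected. It had 6, 1, 0 and 0 counts in Sox9-tg libraries 1 to 4, against 0, 5 and 2 counts in control libraries 1 to 3, and no difference was detectable at this depth. Prelp and Fmod encode small leucine-rich repeat proteins that bind collagen, and they lie 115840 bases apart on chromosome 1. Prelp was at 3.36, 9.18, 3.29 and 3.86 CPM in Sox9-tg libraries 1 to 4, against 2.15, 10.8 and 2.00 CPM in control libraries 1 to 3. Fmod, the fibromodulin gene, was at 0.473, 2.39, 0.644 and 0.732 CPM in Sox9-tg libraries 1 to 4, against 0.174, 1.30 and 0.226 CPM in control libraries 1 to 3. In both genes the groups overlapped and the libraries numbered 2 stood above the rest of their group. The log2 fold changes were -0.03 (SE 0.64) for Prelp and 0.86 (SE 0.81) for Fmod.

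The pair Prelp and Fmod changed most when libraries were left out. Leaving out control replicate 2 gave log2 fold changes of 1.24 for Prelp and 2.35 for Fmod. Leaving out Sox9-tg replicate 2 gave -0.51 for Prelp and 0.09 for Fmod. With both libraries numbered 2 left out, an alternative chosen after seeing the data, Prelp stood at 0.77 and Fmod at 1.58.

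Divided by exon length, the levels of the genes could be ordered. In Sox9-tg libraries Matn4 was at 200 ± 50.2 CPM per kb, Cnmd at 39.6 ± 29.7, Susd5 at 18.6 ± 11.3 and Matn1 at 7.52 ± 7.22 CPM per kb, and this order held in each of the 4 libraries. Prelp and Matn2 followed at 1.36 ± 0.788 and 1.19 ± 0.343 CPM per kb, a difference within their spread. 3110079O15Rik, at 0.736 CPM per kb, was below Matn2 in 3 of 4 libraries, and Fmod, Matn3 and Comp were at 0.321, 0.0955 and 0.0307 CPM per kb. In control libraries Matn4 also led, at 8.99 ± 2.49 CPM per kb, in all 3 libraries. The next in control libraries were Prelp at 1.38 ± 1.40, Matn2 at 0.712 ± 0.176, Cnmd at 0.581 ± 0.429 and Susd5 at 0.505 ± 0.138 CPM per kb, and none of these neighbours kept its place in all 3 libraries. Cnmd thus ranked below Prelp and Matn2 by mean level in control cells and above both in every Sox9-tg library.

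The sequences before the starts of Matn4, Matn1 and Cnmd, 3 of the genes that were far higher in Sox9-tg libraries, are shown because SOX proteins bind short DNA motifs. The promoter table of RefSeq (GRCm38.p6) held windows for 7 of the 10 genes, 8 windows in all, each of 250 bases before and 50 after a gene start; 3110079O15Rik, Matn2 and Comp had no entry. Each window was searched on both strands for ACAATG and ACAAAG, 6-letter forms of the SOX motif that share their first 4 letters. None of the 8 windows held either, whereas 28.6% of 32851 such windows of all genes did. This says only that these letters are not in these windows. Of the 2 windows of Matn4, the one at the gene start of GENCODE is shown, and all 250 of its bases lie in an annotated exon of Rbpjl on the opposite strand. The RefSeq start of Matn1 is also that of GENCODE, and that of Cnmd lies 13 bases from it. Below are the 250 bases before the RefSeq start, 5′ to 3′ on the strand of the gene, with capitals for ACAA or its complement TTGT, those shared letters, searched after the longer motifs gave no match, which 76.7% of all windows contain.
Matn4, chr2:164405161-164405410, minus strand: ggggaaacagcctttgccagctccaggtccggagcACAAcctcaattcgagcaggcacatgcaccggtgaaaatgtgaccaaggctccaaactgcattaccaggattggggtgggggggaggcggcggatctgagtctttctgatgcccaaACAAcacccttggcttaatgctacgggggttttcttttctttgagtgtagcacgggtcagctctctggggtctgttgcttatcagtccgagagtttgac
Matn1, chr4:130944135-130944384, plus strand: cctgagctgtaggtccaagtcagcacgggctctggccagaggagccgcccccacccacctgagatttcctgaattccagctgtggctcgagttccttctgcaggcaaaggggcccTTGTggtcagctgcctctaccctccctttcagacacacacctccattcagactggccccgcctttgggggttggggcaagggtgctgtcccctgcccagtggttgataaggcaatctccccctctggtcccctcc
Cnmd, chr14:79662184-79662433, minus strand: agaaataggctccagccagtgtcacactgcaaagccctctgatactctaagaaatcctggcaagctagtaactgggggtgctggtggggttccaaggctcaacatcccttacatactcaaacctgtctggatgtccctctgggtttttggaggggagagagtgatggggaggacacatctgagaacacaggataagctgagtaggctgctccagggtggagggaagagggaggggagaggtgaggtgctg
The Matn4 window shown held 2 such stretches, the nearer starting 99 bases before the gene start, Matn1 held 1 and Cnmd held none. Of the windows not shown, the other of Matn4 and that of Susd5 held none, and those of Prelp, Fmod and Matn3 held 2 each. The RefSeq start for that other window of Matn4 lies 342 bases inside the GENCODE gene. That of Susd5 lies 214 bases inside it, and 214 bases of the Susd5 window are in exons of Susd5 itself. The windows shown had GC contents of 54.4% for Matn4, 62% for Matn1 and 54% for Cnmd, against a median of 52.4% over all windows.

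Genes next to the 10 were examined because they were not chosen for their values. Of 18 nearest tested genes on either side, other than Prelp and Fmod themselves, 3 rose and 0 fell, against 7.69% of all genes tested that rose and 5.86% that fell; their median log2 fold change was 0.01. By DESeq2, and by edgeR without control replicate 1, 1 of the 18 fell. In the main fit 16.7% of the 18 were called in either direction, against 13.5% of all genes tested. Of the 3 that rose, 2 flanked Matn4. Slpi, which encodes a secreted inhibitor of leukocyte proteases, was at 19.6, 61.8, 45.5 and 38.0 CPM in Sox9-tg libraries 1 to 4, against 0.872, 1.495 and 1.68 CPM in control libraries 1 to 3. It rose by a log2 fold change of 4.89 (SE 0.44, adjusted p = 0.000341 by edgeR's quasi-likelihood test). Rbpjl, which encodes a relative of the Notch effector RBPJ, was at 41.4, 71.2, 58.4 and 55.6 CPM in Sox9-tg libraries 1 to 4, against 1.57, 3.54 and 5.01 CPM in control libraries 1 to 3. It rose by 4.03 on the log2 scale (SE 0.36, adjusted p = 0.000339 by edgeR). In both genes all 4 Sox9-tg libraries were above all 3 control libraries.

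The annotation places these 2 genes against Matn4 on both sides. Rbpjl lies on the opposite strand, overlaps Matn4 and shares 149 exon bases with it. Slpi lies downstream on the same strand, and an alternative transcript annotated for it begins 298 bases beyond the end of Matn4. Counts of Rbpjl were 5.19% to 6.11% of those of Matn4 in Sox9-tg libraries and 4.89% to 8.83% in control libraries. Counts of Slpi were 2.90% to 4.77% of those of Matn4 in Sox9-tg libraries and 2.72% to 2.96% in control libraries. Whether the counting used strand is not given, so reads of Matn4 and Rbpjl in the shared bases cannot be told apart, and whether some reads of Slpi or Rbpjl come from Matn4 transcripts was not tested. Within 100 kb of Matn4, a window set after the values were seen, the 4 other tested genes, Sdc4, Sys1, Dbndd2 and Pigt, had log2 fold changes of 0.67, 0.18, 0.93 and 0.42 and did not pass. Fbxl2, next to Susd5, was the third neighbour that rose (12.8 ± 2.44 CPM in Sox9-tg and 6.85 ± 1.06 CPM in control libraries, adjusted p = 0.0223 by edgeR). By edgeR its adjusted p was 0.0515 with Sox9-tg replicate 3 left out, 0.0902 with control replicate 3 left out and 0.0683 with both libraries numbered 2 left out.

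**Figure D2:**
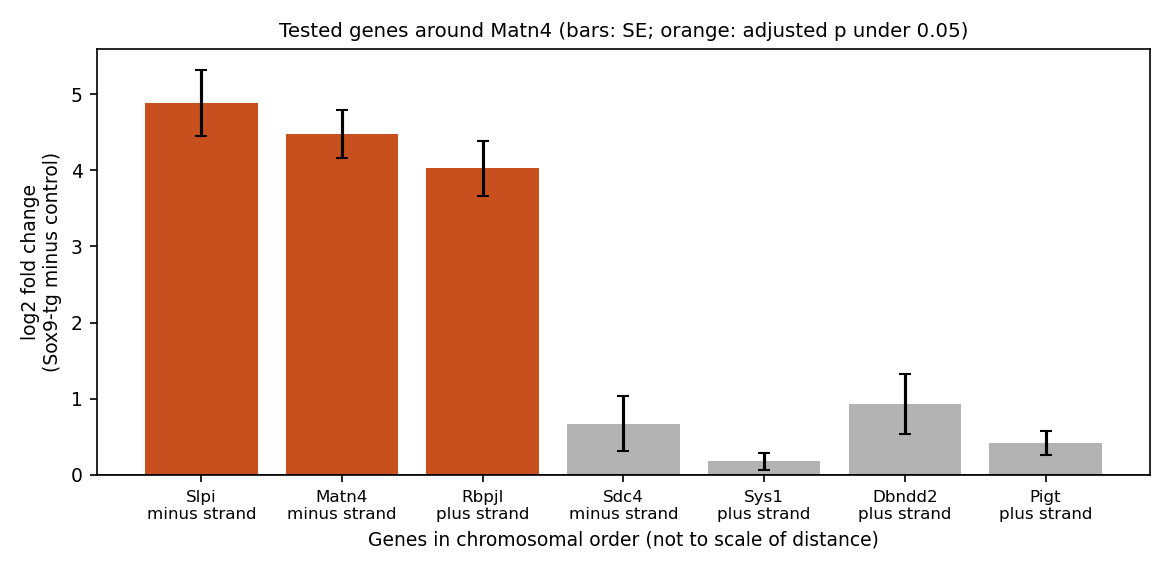
Log2 fold change (Sox9-tg minus control) of the tested genes within 100 kb of Matn4, in chromosomal order, with bars for the SE of the edgeR fit and orange for an adjusted p under 0.05. Slpi, Matn4 and Rbpjl stand at 4.89, 4.48 and 4.03, and Sdc4, Sys1, Dbndd2 and Pigt between 0.18 and 0.93.

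The libraries of a group differed in the same way for several of the genes. In 9 of the 10 genes Sox9-tg replicate 2 was the highest Sox9-tg library, as it was for 31.8% of all genes tested, the exception being Comp. In 6 of the 7 tested genes Sox9-tg replicate 1 was the lowest, as for 37.1% of all genes tested, the exception being Prelp. Matn1 showed the widest range, with replicate 1 at 0.185 and replicate 2 at 2.39 times the Sox9-tg mean, and Matn4 the narrowest, with 0.653 and 1.25 times. Sox9 followed this order only in part, being lowest in Sox9-tg replicate 1 but highest in Sox9-tg replicate 3. Summed markers of newly forming and myelinating oligodendrocytes followed it, at 926, 5229, 2999 and 2611 CPM in Sox9-tg libraries 1 to 4. In control libraries 1 to 3 they were at 96.0, 195 and 180 CPM. All 6 of these markers rose in Sox9-tg libraries, and their part in the differences of Matn1, Cnmd and Susd5 was not tested. Summed markers of microglia and fibroblasts were also lowest in Sox9-tg replicate 1 and highest in Sox9-tg replicate 2, so the order was not confined to oligodendrocyte markers. The sum of the NG2 glia markers had this order too, but its genes differed. Gpr17 (3953 CPM, others 1500 to 3381) and Cspg4 were highest in Sox9-tg replicate 2. Pdgfra was lowest there (1303 CPM, others 1409 to 1538), and Olig1, Olig2 and Sox10 were highest in Sox9-tg replicate 3 or 4.

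Prelp, Fmod and Cnmd were highest in replicate 2 of both groups. So were Susd5, at 1.24 times the control mean in control replicate 2, and 3110079O15Rik, with only 6 counts there. Of all genes tested, 40.3% were highest in control replicate 2 of the control libraries. In Sox9-tg replicate 2 Prelp was at 1.87, Fmod at 2.26 and Cnmd at 2.09 times the Sox9-tg mean, and in control replicate 2 they were at 2.17, 2.29 and 1.85 times the control mean. Several summed marker lists were also highest in replicate 2 of both groups, that of newly forming and myelinating oligodendrocytes among them. The sum of the NG2 glia markers was as well, though not each of its genes. The summed level of 4 endothelial markers was 4.36, 18.7, 3.8 and 4.83 CPM in Sox9-tg libraries 1 to 4, against 6.86, 99.9 and 5.43 CPM in control libraries 1 to 3. The summed level of 4 microglial markers was 28.4, 164, 54.8 and 43.3 CPM in Sox9-tg libraries 1 to 4, against 53.0, 386 and 99.0 CPM in control libraries 1 to 3. The 8 fibroblast markers summed to 20.7 to 41.0 CPM in Sox9-tg and 30.1 to 83.0 CPM in control libraries, again highest in the libraries numbered 2. Their part in the levels of Prelp, Fmod and Cnmd was not tested. The endothelial markers had log2 fold changes from -2.41 to -1.79 and the microglial markers from -1.47 to -0.45, and none of these 8 had an adjusted p under the threshold, although 2 of the endothelial markers had an unadjusted p under it (edgeR).

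**Figure D3:**
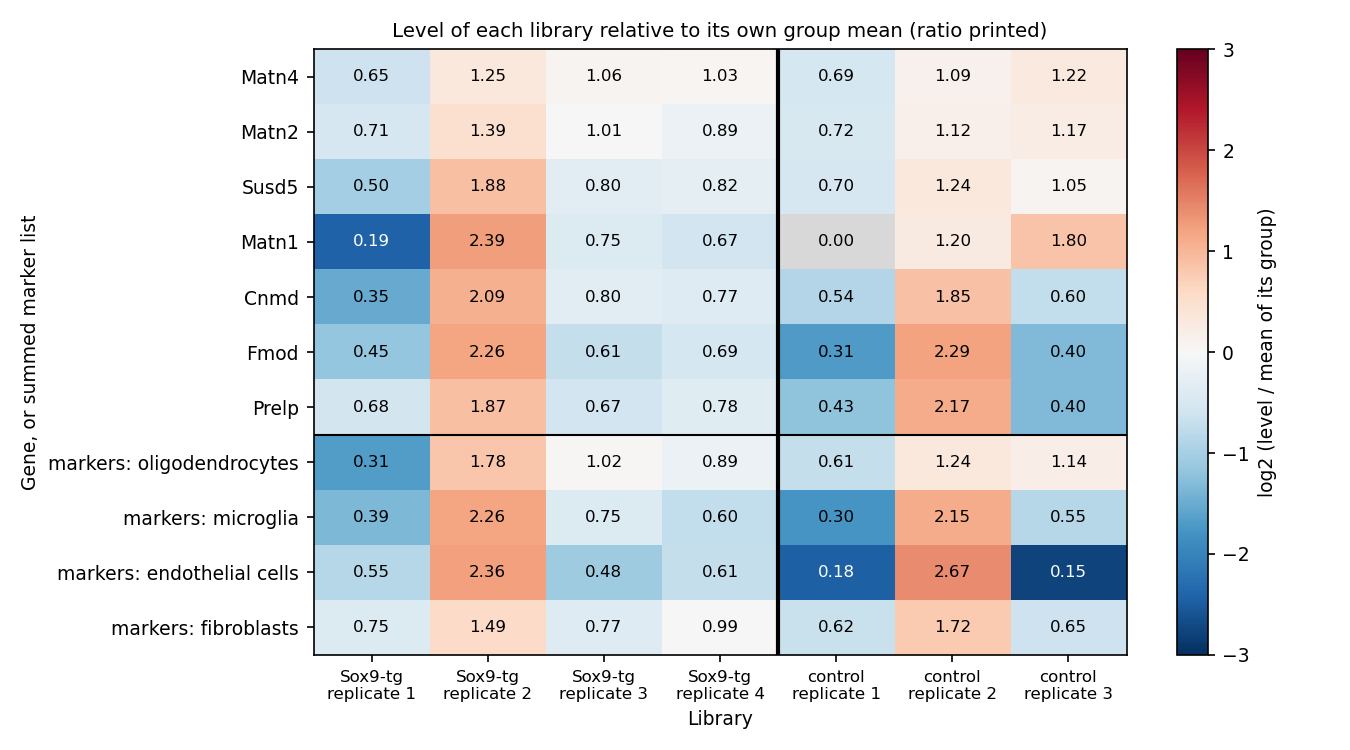
Level of 7 genes and of 4 summed marker lists in each library, printed as the ratio to the mean of its own group and coloured on a log2 scale (grey: 0 counts), with the 4 Sox9-tg libraries left of the 3 control libraries. Replicate 2 is the highest Sox9-tg library in every line shown, and control replicate 2 reaches 2.17 and 2.29 for Prelp and Fmod, beside 2.67 for endothelial and 2.15 for microglial markers.

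After subtraction of the group means, log2 levels of Prelp and Fmod had a Pearson correlation of 0.958 over the 7 libraries, Matn1 and Susd5 of 0.963, Matn1 and Matn2 of 0.953, and Cnmd and Susd5 of 0.950. Across these sets it was 0.925 for Cnmd and Fmod, 0.85 for Susd5 and Fmod, 0.805 for Cnmd and Prelp and 0.421 for Matn4 and Prelp. The same measure between Sox9 and the 7 tested genes lay between 0.371 and 0.717, highest for Matn4. These values describe 7 libraries that share depth and cell make-up. The genes most like Susd5 by level over the 7 libraries were Col9a1, Scrg1 and Angptl1 (Pearson correlation 0.999, 0.997 and 0.997 of log2 levels, among 11497 candidates). Col9a1 and Col9a2, chains of cartilage collagen IX, were also the most like it after subtraction of the group means (0.997 and 0.995), followed by Tmem132b (0.993). The genes most like Matn4 by level were Cntn1, Gab1 and Gfra1, and those most like Cnmd were Ppfibp1, Gnb4 and Sppl2a. Those most like Matn1 were Lrrtm2, Gp1bb and Irs2, and those most like Matn2 were Cercam, Prss56 and Lgals8. All of these were at 0.981 or more. After subtraction of the group means they were Spata5l1, Smyd2 and Iars2 for Matn4 and Hk2, Ydjc and Sord for Cnmd. For Matn1 they were Ttc38, Dusp26 and Pde12, and for Matn2 Prss56, Eps15 and Pold4. These were at 0.982 or more, so values this high were not particular to Susd5 and the collagens.

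Relatives of the 10 genes were then counted, from lists written from textbook knowledge. Over 8 lists of matrix families and of cartilage genes, 48 of 74 genes were tested, of which 20 rose and 1 fell. Their median log2 fold change was 0.77, while that of all genes tested was -0.01. These were 41.7% higher and 2.08% lower of the 48, beside 7.69% higher and 5.86% lower of all genes tested. The lists were written with earlier results of this comparison known. The 5 lists by protein family held 26 tested genes, of which 6 rose (23.1%), and the 3 lists of cartilage genes held 22, of which 14 rose (63.6%); the difference between them was not tested. Of 4 tested thrombospondins, the family of Comp, none rose and Thbs3 fell, to 9.56 ± 1.32 CPM in Sox9-tg libraries, against 33.6 ± 4.25 CPM in control libraries (log2 fold change -1.82, SE 0.16, adjusted p = 0.000291 by edgeR). Thbs3 was at 7.63 to 10.6 CPM in Sox9-tg and 28.8 to 36.7 CPM in control libraries. Of 3 tested genes with the BRICHOS domain of chondromodulin, Itm2a, Itm2b and Itm2c, none passed, at log2 fold changes from 0.19 to 1.53, and 1 had an unadjusted p under 0.05 by edgeR. Tnmd, the gene closest to Cnmd in this family and a marker of tendon, had a mean of 0.0253 CPM in Sox9-tg libraries and 0 counts in the control libraries.

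Among 5 tested genes for proteins with the VWA domain of matrilins, only Antxr1, a collagen-binding receptor, rose (88.9 ± 3.33 CPM in Sox9-tg and 54.2 ± 5.69 CPM in control libraries, log2 fold change 0.71, SE 0.11). The other 4 lay between -0.82 and 0.61. Of 4 tested Susd genes other than Susd5, Susd4, which encodes a regulator of complement, rose (58.3 ± 9.54 CPM in Sox9-tg and 21.9 ± 4.03 CPM in control libraries, log2 fold change 1.41, SE 0.18), and the others had log2 fold changes from -0.43 to 0.54. Of 16 small leucine-rich repeat genes, the family of Prelp and Fmod, 10 were tested, 4 rose and none fell.

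Chadl, which encodes a chondroadherin-like protein, was the most abundant of these 4. It was at 104, 247, 191 and 192 CPM in Sox9-tg libraries 1 to 4, against 18.8, 38.5 and 28.1 CPM in control libraries 1 to 3 (log2 fold change 2.68, SE 0.33, adjusted p = 0.00152 by edgeR). Lum, the lumican gene, had 1.37, 6.88, 2.83 and 2.34 CPM in Sox9-tg libraries 1 to 4, against 0, 0.325 and 0.0323 CPM in control libraries 1 to 3. By edgeR its adjusted p was 0.0150, and 0.069 with control replicate 3 left out. Its log2 fold change of 4.61 became 4.00 when Sox9-tg replicate 2 was dropped and 6.99 when control replicate 2 was dropped. Tsku rose to 21.7 ± 2.16 CPM in Sox9-tg libraries, against 10.9 ± 3.37 CPM in control libraries. Chad, chosen after its values were seen, rose to 2.45 ± 1.93 CPM in Sox9-tg libraries, against 0.315 ± 0.0960 CPM in control libraries. Both calls ended when control replicate 1 (edgeR adjusted p = 0.062 for Tsku and 0.0648 for Chad) or control replicate 3 (0.0661 for Tsku and 0.0605 for Chad) was left out. Without Sox9-tg replicate 2 the log2 change of Chad was 2.21 in place of 2.92. Optc, the opticin gene beside Prelp, was at 1.26 ± 0.385 CPM in Sox9-tg and 1.70 ± 0.432 CPM in control libraries and did not pass.

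Of 7 tested cartilage collagen chains all 7 rose, with log2 fold changes from 2.43 to 5.04, the lowest, Col27a1, being at 3.05 without control replicate 2, and Col10a1, the chain of hypertrophic cartilage, was too low to test. Among these, Col9a1, whose protein carries matrilins on fibril surfaces, was at 127, 387, 192 and 202 CPM in Sox9-tg libraries 1 to 4, against 5.35, 8.48 and 6.92 CPM in control libraries 1 to 3. Of 8 other tested cartilage matrix or secreted proteins, Acan, Scrg1, Crtac1 and Hapln1 rose, the last of these chosen after its values were seen. Acan, which encodes the aggrecan core protein, was at 95.5, 207, 88.6 and 93.4 CPM in Sox9-tg libraries 1 to 4, against 3.55, 6.11 and 3.07 CPM in control libraries 1 to 3. Scrg1 and Crtac1 rose by log2 fold changes of 2.28 and 0.98, and Hapln1, the link protein that fixes aggrecan to hyaluronan, by 2.75 (SE 0.61). With control replicate 1 left out the edgeR adjusted p was 0.0587 for Crtac1 and 0.0599 for Hapln1, and with control replicate 3 left out it was 0.077 for Hapln1. The log2 change of Hapln1 was 2.07 without Sox9-tg replicate 2. Clec3a and Cytl1 had 0 counts in all 7 libraries, and Mgp and Ucma were too low to test.

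Of 7 tested transcription factors of cartilage formation, 3 rose and none fell. These were Sox6 (423 ± 80.5 CPM in Sox9-tg and 119 ± 8.41 CPM in control libraries), Sox5 (158 ± 37.4 CPM in Sox9-tg and 88.8 ± 7.49 CPM in control libraries) and Arid5b (23.5 ± 5.53 CPM in Sox9-tg and 12.9 ± 1.60 CPM in control libraries). Sox5 missed the threshold when control replicate 3 was left out (edgeR adjusted p = 0.0707). Arid5b missed it when any 1 control library, or Sox9-tg replicate 3 or 4, was left out (edgeR adjusted p = 0.0605 to 0.0986). The 7 factors ranged from -1.09 to 1.83 in log2 fold change.

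**Figure D4:**
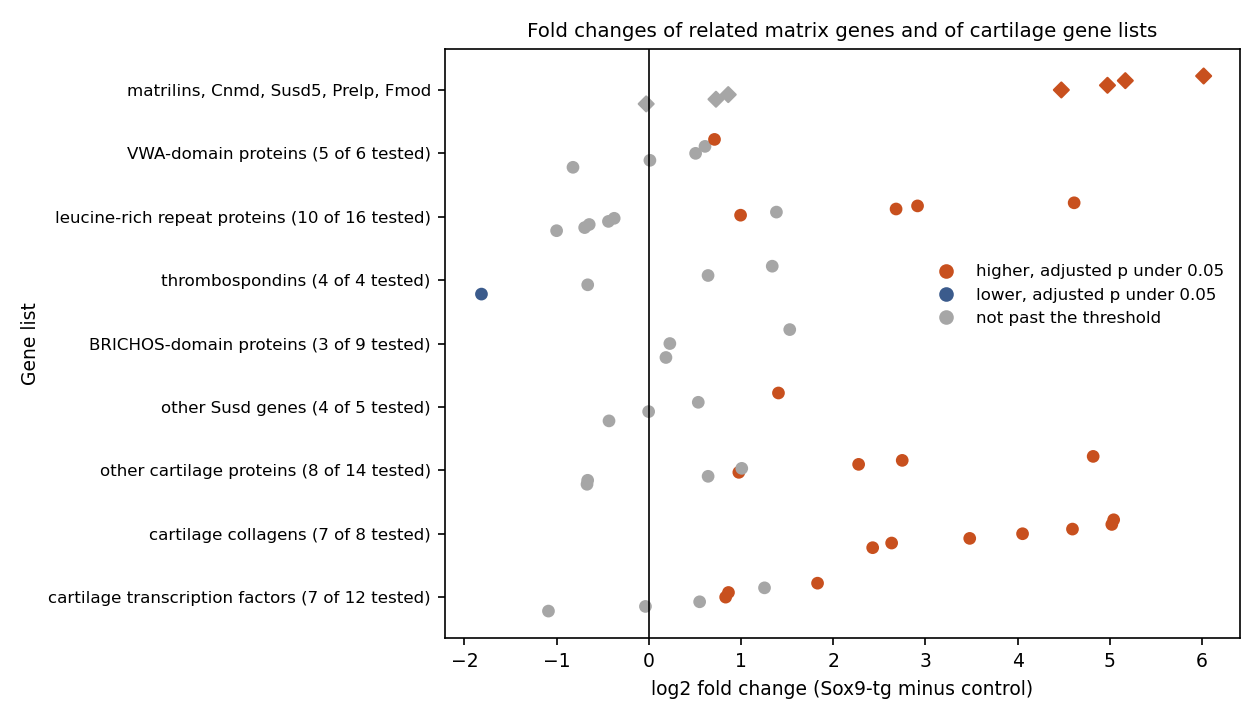
Log2 fold changes (Sox9-tg minus control) of the tested members among the 10 genes (diamonds) and of 8 lists of related genes (circles), with orange for higher and blue for lower at an adjusted p under 0.05 and grey for genes that did not pass. All 7 tested cartilage collagens lie between 2.43 and 5.04, Thbs3 at -1.82 is the only gene in blue, and the protein-family lists are mostly grey.

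Markers of bone and tendon cells were low. Of 5 markers of osteoblasts and hypertrophic chondrocytes, Col10a1, Ibsp, Sp7 and Bglap were too low to test, and Alpl, which other cells also express, fell (adjusted p = 0.00811 by edgeR). The 5 summed to 7.68 to 13.2 CPM in Sox9-tg and 22.8 to 35.6 CPM in control libraries. The 3 tendon markers summed to 2.71 to 2.99 CPM in Sox9-tg and 1.80 to 3.28 CPM in control libraries. Among 8 fibroblast markers Lum was the only call, and Dcn, its closest relative in that list, was at 0.186 ± 0.0194 CPM in Sox9-tg and 0.858 ± 0.664 CPM in control libraries. Of 4 tested markers of Schwann cells and neural crest, 3 rose in Sox9-tg libraries, and they are named here after their values were seen. Foxd3, a transcription factor of the neural crest, was at 50.7 ± 20.03 CPM in Sox9-tg and 0.551 ± 0.604 CPM in control libraries. Mitf, the regulator of melanocytes, was at 34.0 ± 6.31 CPM in Sox9-tg and 2.74 ± 1.17 CPM in control libraries, and Cdh19, a cadherin of Schwann cell precursors, at 3.95 ± 1.70 CPM in Sox9-tg and 0.801 ± 0.505 CPM in control libraries. The part of such cells in the differences of the 10 genes was not tested.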

How the data were processed

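Gene counts of 7 libraries were used as the authors deposited them, raw and not normalized. The submitters' processing notes list, without their order, Trimmomatic (0.36), the aligner STAR (2.5.2b), featureCounts, the package Subread (1.5.2), DESeq, DESeq2 and the build GRCm38; the use of strand and of reads that map to several places is not stated, which matters for genes that overlap. The 10 genes, the lists of related genes and markers, and the tests were chosen with earlier results of these data known.

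Genes passing filterByExpr (minimum count 10, minimum total 15) were scaled by TMM and fitted in edgeR 4.0.16 (R 4.3.3) with a quasi-likelihood F test on group alone, with Benjamini-Hochberg adjustment over 16616 genes and a threshold of 0.05. The 3 counts of a detection floor came to 0.097 to 0.193 CPM, which covers counting error only. The procedure was tested on simulated data with 200 changed genes. It recovered 4.48% of changes of 1.5-fold, 49.2% of 2-fold and 72.3% of 4-fold, and 3.53% of its calls were false. Genes that did not pass may therefore still differ, above all by small folds. The text names the 10 genes, up to 3 called genes a list with the smallest p, called neighbours, and for each of the 10 that averaged 5 CPM or more in either group the 3 genes most correlated with it (log2 of CPM + 0.5); other names are given as chosen after values were seen or describe a list or marker set. Gene positions, exon lengths and overlaps came from GENCODE M21. Alternatives were other scalings and filters, DESeq2 1.42.0, limma 3.58.1 (voom), a replicate block and leaving out each library. Protein sequences were not analysed here. One marker gene is not reported here.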

Additional observations from a re-analysis of the deposited data

Results flagged for a closer look

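In each of 35 genes the highest or lowest of the 4 Sox9-tg libraries was compared with the nearest other, as a share of the range of the group, and in 10 genes that share passed Dixon's limit of 0.829. Chance alone passes it in about 1 of 20 groups, and genes of the same libraries are not independent.

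Sox9-tg replicate 2 stood above the others in 8 of them. The share was 0.895 for Matn3 (0.998 CPM, others 0 to 0.105), 0.926 for 3110079O15Rik (1.30 CPM, others 0.244 to 0.322), 0.903 for Prelp (9.18 CPM, others 3.29 to 3.86) and 0.865 for Fmod (2.39 CPM, others 0.473 to 0.732). Among related genes it was 0.902 for Chad (5.34 CPM, others 1.26 to 1.66), 0.942 for Acan (207 CPM, others 88.6 to 95.5), 0.942 for Col2a1 (1193 CPM, others 597 to 632) and 0.884 for Col27a1 (125 CPM, others 56.8 to 64.7).

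Sox9-tg replicate 1 stood apart for Comp, at a share of 0.842 (0.315 CPM, others 0 to 0.0499), and for Sox5, at 0.956 (214 CPM, others 137 to 141).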

How the results depend on the processing

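The log2 fold changes of Matn4, Cnmd, Susd5 and Matn1 were positive in every alternative run; since these genes were chosen from this comparison, their p-values are not read. Of the 10 genes, 4 were under the threshold, against 3 in limma-voom (without Matn1) and 5 with the replicate block (with Matn2 added). The replicate block gave 3109 changed genes in place of 2251 and 5 changed neighbours (3 higher, 2 lower) in place of 3 (all higher). The log2 fold change of Prelp, -0.03, was positive in limma-voom (0.24), with the replicate block (0.33) and with both libraries numbered 2 left out (0.77), and ranged from -0.51 to 1.24 when single libraries were left out; the cause was not tested. Leaving out single libraries gave 965 to 3169 changed genes in place of 2251 (965 without control replicate 3, 1261 without control replicate 1, 1342 without Sox9-tg replicate 3, 1356 without Sox9-tg replicate 4), 4 of the 10 genes each time, 15 to 25 listed genes and 2 to 4 neighbours. Library totals in place of TMM gave 1117 genes higher and 1087 lower, and upper-quartile factors 1113 and 1112, against 1278 and 973. Same-numbered libraries of the 2 groups had correlations of 0.317, 0.613 and 0.07. Control replicates 1 and 2 correlated best with the Sox9-tg library of the same number, but control replicate 3 with Sox9-tg replicate 1. The numbers were not taken as pairs in the main fit, and the counts with the replicate block are given above. Depth limits Matn3, 3110079O15Rik and Comp, which had 23, 41 and 7 counts in all Sox9-tg and 8, 12 and 7 in all control libraries.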
